A study of Mus musculus with 203 samples.

Results

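The nucleus ambiguus (Amb) is a column of cholinergic motor neurons in the medulla that sends its axons out through the vagus nerve. It holds parasympathetic neurons, which synapse on small ganglia in the heart and airways, and branchial motor neurons, which contact striated muscle of the larynx, pharynx and oesophagus directly. The first act through relay neurons on cardiac rhythm, whereas the second contract muscle fibres for voice, swallowing and airway control. Both kinds release acetylcholine.

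The comparison set 98 ACV neurons (ambiguus cardiovascular, a molecular subtype of heart-projecting neurons) against 52 laryngeal neurons (150 neurons; the other 53 of the neurons sequenced were ACP neurons, described below). The neurons came from wild-type C57BL/6 mice (C57BL/6NCrl in the study's methods) of postnatal days 2 to 4. Cholera toxin B, a fluorescent retrograde tracer, had been injected shortly after birth either into the pericardial space or into the cricothyroid muscle of the larynx. Each traced cell body was then aspirated by hand from a brainstem slice and turned into its own Smart-seq2 library, a full-length method without molecular identifiers. All 52 neurons traced from the larynx carry the laryngeal assignment in the deposited annotation, and the ACV neurons are those heart-traced neurons that clustering of these same counts placed in 1 of 2 subtypes. The other subtype, the 53 ACP neurons (ambiguus cardiopulmonary), was left out of the comparison and is given beside it.

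Because clustering on these counts defined the ACV neurons, and because the labels do not say which mouse a neuron came from, each type counts as 1 sample. The differences below are therefore descriptions of these 150 neurons, with no p-value. Each gene was compared by its level, in counts per 10000 counts of the neuron outside *Rn45s* (a ribosomal RNA precursor). The rank sum statistic is given as the pair share, the percent of the 5096 ACV–laryngeal pairs in which the ACV neuron had the higher level, with ties split evenly, so that 50% means no shift. A gene was called when at least 10% of either type had a read, the pair share was at least 70% or at most 30%, and the mean levels differed at least 2-fold in that direction. Intervals on shares of neurons are exact 95% binomial intervals. They take the neurons as independent draws, although their mice are unknown, and leave out variation between mice. Intervals on summed counts take each read as an independent molecule, although PCR copies are not. They also leave out variation between neurons and between mice, and so are too narrow.

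The libraries of both types were deep, but they differed in makeup. Total counts ran from 840315 to 3116633 in ACV neurons (median 1825369) and from 542162 to 3292763 in laryngeal neurons (median 1389806). *Rn45s* took a median of 35.9% of the counts in ACV neurons and 58.6% in laryngeal neurons, so that 1120512 and 560892 counts per neuron (medians) remained for other genes. The median number of genes with a read was nevertheless close, at 7627 and 7594. Counts of *Apoe*, an astrocyte transcript, reached 45046 in an ACV neuron and 1784 in a laryngeal neuron. At most 1800 counts of *Apoe* were found in 70 of 98 ACV, 52 of 52 laryngeal and 42 of 53 ACP neurons, although the stated methods removed neurons above that limit. As a level, *Apoe* had medians of 8.55 and 9.77, with a pair share of 49.7% that ranged from 27.3% to 76.2% among the alternatives. The most alike pair of ACV or laryngeal neurons, and the next, were formed by 3 ACV neurons. A first pair of them correlated at r = 0.97 over the genes compared, against a median of 0.67 for pairs of ACV neurons, and 97.1% of the genes read in one member were also read in the other. A second pair among the 3 correlated at r = 0.95, and the remaining pair at r = 0.89. Another ACV neuron correlated with a member of the first pair at r = 0.91, and 96.65% of its genes were also read there. The group of 3 is therefore not sharply bounded. Results without the 3, but with that other neuron, are given beside the counts of called genes.

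Both types read as cholinergic motor neurons. *Slc18a3*, the vesicular acetylcholine transporter, had a read in 100% of both types, *Chat*, which makes acetylcholine, in 100% of ACV and 88.5% of laryngeal neurons, and the motor neuron factor *Isl1* in 95.9% and 92.3%. *Chat* had median levels of 1.44 and 1.51 and a pair share of 48.04%, and *Isl1* had medians of 1.90 and 1.61 and a pair share of 54.4%. The 9 astrocyte markers summed to a median level of 23.1 in ACV neurons (1.29 to 315) and 28.6 in laryngeal neurons (9.33 to 161.7), and 0 of the 9 was called. The 9 oligodendrocyte markers had median sums of 3.19 and 3.51 and the 8 microglial markers 0.357 and 0.373. The 8 endothelial and mural markers had median sums of 0 and 0.00734. None of the glial or vascular markers was called over all neurons. In neurons with at least 50% of counts on *Rn45s*, 2 astrocyte markers were called higher in ACV neurons. In neurons with at most 900 counts of *Apoe*, 1 was called higher in laryngeal neurons. *Apoe* itself was called in both settings. Markers of other neurons were not absent: the GABA or glycine markers summed to medians of 0.0964 in ACV and 0.582 in laryngeal neurons, the glutamatergic markers to 0.0792 and 0.799, and the catecholamine or serotonin markers to 0.0970 and 0. None of these 3 lists held a call over all neurons. In neurons with at least 7000 genes, 1 glutamatergic and 2 GABA or glycine markers were called higher in laryngeal neurons, with pair shares as low as 21.02% for *Slc17a6* and 27.28% for *Gad2*. In neurons with at least 1000000 counts each of these 2 lists held 1 such call. Over all neurons their members farthest from 50% were *Gad2* (pair share 32.7%), *Slc17a6* (31.3%) and *Ddc* (64.1%), and their part in the results was not tested.

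Of 13297 genes compared, 385 were called, of which 236 (1.77% of the genes compared) were higher in laryngeal neurons and the rest (1.12%) higher in ACV neurons. These shares of all genes are the background for each count of called list members below. The lists were chosen with earlier results of these data known, so a count above the background may be partly built in. Without the 3 like ACV neurons, the calls amounted to 1.84% and 1.14% of the same number of genes. The median gene had a pair share of 51.2% and a log2 ratio of mean levels (ACV over laryngeal) of -0.02. Calls were graded rather than all-or-none. A called gene higher in ACV neurons had a read in a median of 86.7% of ACV and 51.9% of laryngeal neurons, and a called gene higher in laryngeal neurons in 88.5% of laryngeal and 63.8% of ACV neurons. After every neuron was thinned to 118492 counts, the same medians were 79.6% and 42.3%, and 82.7% and 47.96%. The shares of neurons with a read kept their direction after thinning for 377 of the 385 called genes. The scale matters for the balance: with *Rn45s* counted in the total, the median log2 ratio of all genes moved to 0.52 and calls higher in ACV neurons amounted to 5.0% of the genes against 0.985% in laryngeal neurons, so that ACV genes were 83.5% of the calls in place of 38.7%. The calls nearest the limit were *Pisd-ps3* (70.02%) in ACV neurons, with *Astn2* (69.98%) just outside, and *Kcnt1*, for which the laryngeal neuron was higher in 70.04% of pairs, with *Lamp5* just outside.

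**Figure D1:**
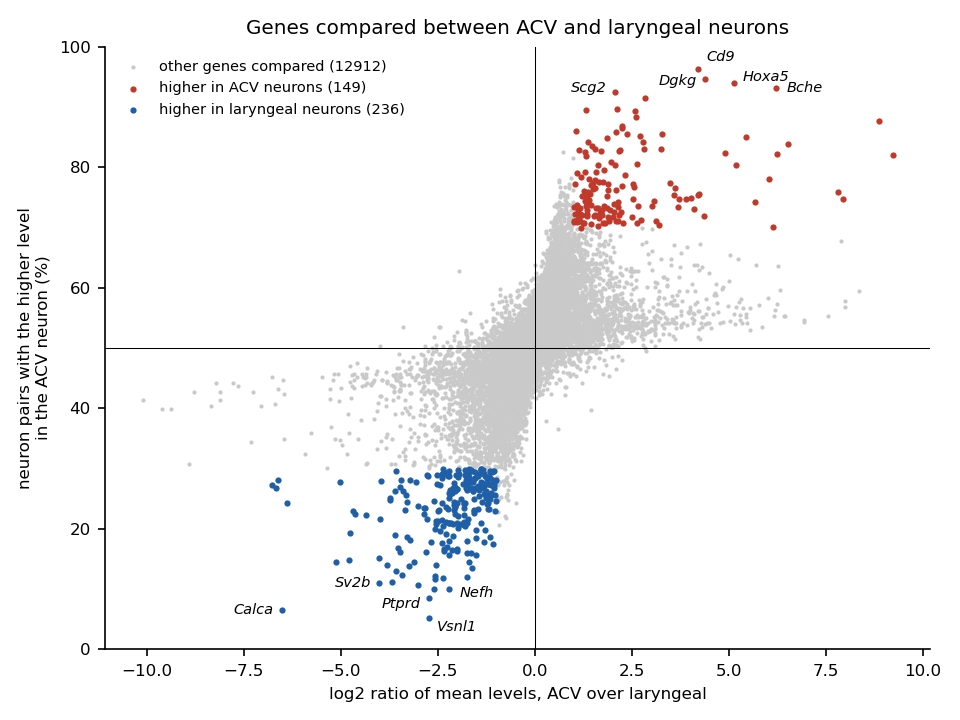
All 13297 genes compared, by the log2 ratio of mean levels (ACV over laryngeal, horizontal) and the percent of neuron pairs in which the ACV neuron had the higher level (vertical, ties split evenly). The genes called higher in ACV neurons (1.12%) are red, the 236 called higher in laryngeal neurons blue. *Cd9* stood highest at 96.3% and *Vsnl1* lowest at 5.12%.

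The genes that best set ACV neurons apart encode a membrane organiser, lipid signalling enzymes, a Hox factor and enzymes that break down transmitters. *Cd9* (chr6:125460266-125494791, minus strand), a tetraspanin that organises membrane proteins, ran from 0 to 29.1 in ACV neurons with a median of 8.21, and from 0 to 5.32 in laryngeal neurons with a median of 0.0875. Most laryngeal neurons were low, but the ranges overlapped up to the highest laryngeal neuron, which lay below the ACV median. The mean levels were 8.90 ± 5.80 (SD, n = 98) and 0.480 ± 0.908 (SD, n = 52), an 18.5-fold difference with a pair share of 96.3%. ACP neurons averaged 0.753 ± 0.909 (SD, n = 53), so among the heart-traced neurons *Cd9* was higher in the ACV neuron of 95.01% of ACV–ACP pairs. *Dgkg*, a diacylglycerol kinase, had a median of 2.34 (0 to 11.6) in ACV and 0 (0 to 0.903) in laryngeal neurons, a 20.9-fold difference in means and a pair share of 94.6%. *Plcb4*, a phospholipase C that produces diacylglycerol, had medians of 3.09 and 0.483, with a 6.05-fold difference in means. Exons of *Cd9* and *Dgkg*, like those of *Ptprd*, *Nfia*, *Gfra1*, *Sv2b*, *Tbx3*, *Cntn5*, *Cdh8*, *P2ry1*, *Rxfp2*, *Adora1*, *Grm7* and *Grin1* below, overlap a gene annotated on the opposite strand. Reads of the opposite gene may be counted with them, since no separation of reads by strand is given in the sources used here.

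*Bche* and *Maoa* concern the breakdown of transmitters. *Bche* (chr3:73635808-73708415, minus strand), the butyrylcholinesterase that hydrolyses choline esters, had a read in 89.8% of ACV neurons (interval 82.03 to 95%) and in 9.62% of laryngeal neurons (3.20 to 21.03%). Its level had a median of 0.673 in ACV neurons, up to 6.32, and of 0 in laryngeal neurons, up to 0.249. The means differed 74.5-fold and the pair share was 93.3%. *Maoa*, the monoamine oxidase that degrades serotonin and noradrenaline, had medians of 2.57 and 0.154, means 7.18-fold apart and a pair share of 91.5%. ACP neurons were nearer to ACV neurons for *Maoa* (mean 1.69 ± 1.22, SD) than for *Bche* (0.146 ± 0.280, SD).

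*Scg2*, *Gpx3* and *Ubb* differed in amount rather than in presence. *Scg2*, secretogranin II of dense-core vesicles, was read in 100% of ACV and 98.1% of laryngeal neurons, with medians of 12.1 (1.69 to 38.8) and 1.69 (0 to 31.3) and a pair share of 92.4%. *Gpx3*, a secreted glutathione peroxidase, had medians of 5.92 and 0.969 and a pair share of 89.7%. *Ubb*, a polyubiquitin gene whose repeats and pseudogenes make its counts uncertain, had medians of 1.75 and 0.729 and a pair share of 89.5%. For all of *Scg2*, *Gpx3*, *Ubb* and *Maoa*, the ACP neuron was higher than the laryngeal neuron in at least 73.8% of pairs. Among the genes called higher in ACV neurons, 48 also had a pair share of at least 70% for ACP over laryngeal neurons, 0 had one of at most 30%, and the rest lay between. Both sets share the 52 laryngeal neurons.

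*Mia2* and *Tm4sf4* were called in ACV neurons without any read in laryngeal neurons, and are named here after their values were seen. *Mia2* had 5507 counts over the 98 ACV neurons and a read in 75.5% of them, and *Tm4sf4*, a tetraspan-family membrane protein, had 7523 counts and a read in 64.3%. With the limit of 3 counts over all laryngeal neurons that a count of 0 allows, their means were at least 469-fold and at least 602-fold higher. Both were also read in ACP neurons, in 41.5% and 54.7%. In the other direction no called gene lacked reads in ACV neurons, although *Ucn* (urocortin) had 819 counts in 17.3% of laryngeal neurons and 0 in ACV neurons, below the call limit with a pair share of 41.3%.

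Laryngeal neurons were led by neuropeptide, calcium-sensor, axonal and trophic receptor genes. *Vsnl1* (chr12:11325242-11436613, minus strand), the calcium sensor visinin-like 1, ran from 0.304 to 7.61 in laryngeal neurons with a median of 1.63, and from 0 to 3.10 in ACV neurons with a median of 0.141. Every laryngeal neuron had a read, and the ranges overlapped. The mean was 6.61-fold higher in laryngeal neurons, which were higher in 94.9% of pairs. *Ptprd*, a receptor tyrosine phosphatase of synapse formation, had medians of 2.42 in laryngeal and 0.205 in ACV neurons, with means of 4.77 ± 4.73 (SD) in ACP and 3.31 ± 2.72 (SD) in laryngeal neurons. *Nfia*, a nuclear factor I transcription factor, had medians of 1.498 and 0.0735, and *Lynx1*, a membrane-anchored modulator of nicotinic receptors, of 3.27 and 0.451. The laryngeal neuron was higher in 91.5%, 88.4% and 88.1% of pairs for *Ptprd*, *Nfia* and *Lynx1*. Of the 236 genes called higher in laryngeal neurons, 81 were also lower in ACP neurons by a pair share of at most 30%, 1 went the other way at 70% or more, and the rest lay between.

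**Figure D2:**
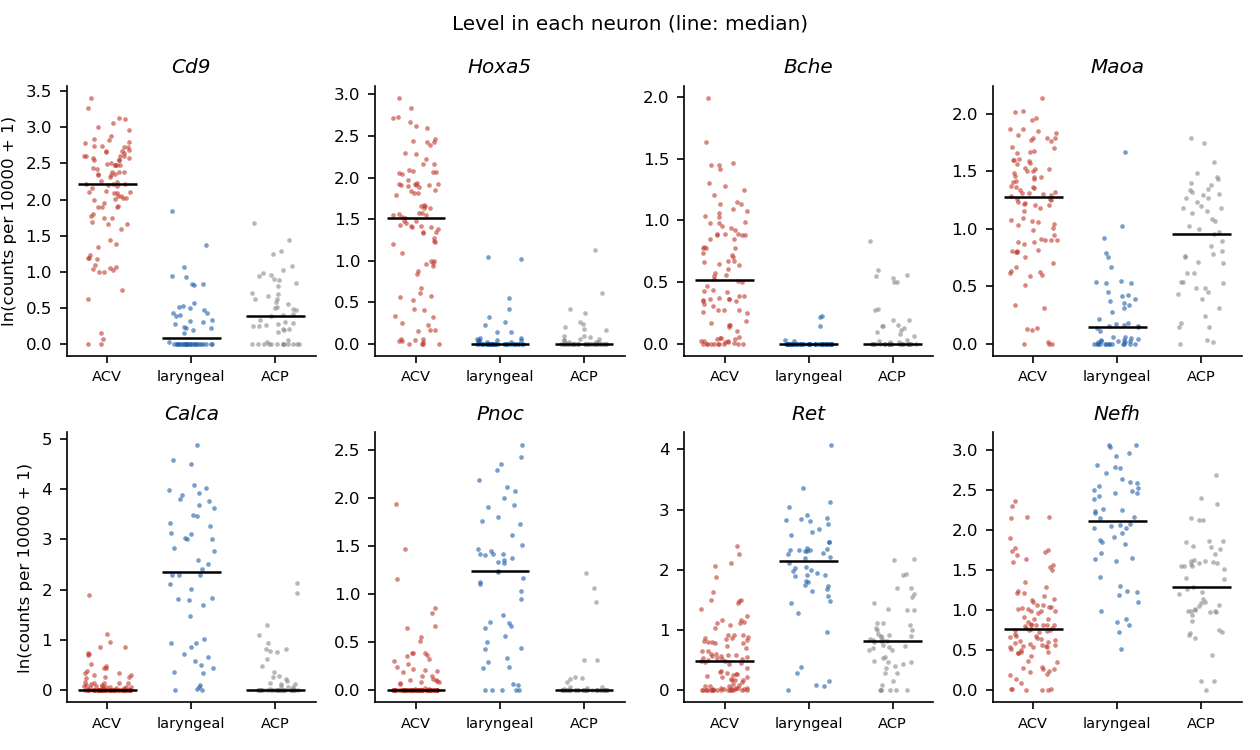
Level of 8 genes in each neuron, as the natural log of counts per 10000 plus 1 (vertical), for 98 ACV, 52 laryngeal and 53 ACP neurons, each a point, with the median as a line. *Cd9*, *Hoxa5*, *Bche* and *Maoa* sit high in ACV neurons, and *Calca*, *Pnoc*, *Ret* and *Nefh* in laryngeal neurons, with overlap in every panel. The median of *Calca* is 9.47 counts per 10000 in laryngeal neurons and 0 in ACV neurons.

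The neuropeptide list divided in 1 main direction. Neuropeptides are cut from precursor proteins, stored in dense-core vesicles and released beside the fast transmitter. Of 32 precursors compared, 6 were called higher in laryngeal neurons (*Calca*, *Calcb*, *Pnoc*, *Uts2*, *Cartpt* and *Trh*) and 1 in ACV neurons (*Igf1*), and the list's median pair share was 43.2%. The list holds growth factors such as *Igf1*, insulin-like growth factor 1, beside neuropeptides proper.

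*Calca* (chr7:114631478-114636357, minus strand), which encodes calcitonin and the peptide CGRP, ran from 0 to 130 in laryngeal neurons with a median of 9.47, and from 0 to 5.63 in ACV neurons with a median of 0. Only 2 of 52 laryngeal neurons were without a read, whereas 42.9% of ACV neurons had any. The means were 20.9 ± 27.2 (SD) and 0.228 ± 0.667 (SD), which is 91.9-fold, and the laryngeal neuron was higher in 93.5% of pairs. *Calcb*, the neighbouring gene for the other form of CGRP, had a laryngeal median of 9.17, up to 77.8, against 0.137, up to 5.40, and means 27.8-fold apart. *Calca* and *Calcb* share near-identical exons that could trade reads, and their levels moved together over the 52 laryngeal neurons (Pearson r = 0.93, Spearman rho = 0.92 on the log levels). *Pnoc*, the precursor of nociceptin, had a laryngeal median of 2.44 (0 to 11.9) and an ACV median of 0 (0 to 5.91). It followed *Calca* much less closely, with r = 0.21 over the same neurons. These correlations describe neurons of a single sample whose depth differed, and carry no test.

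The remaining precursors were read in part of the laryngeal neurons. *Uts2* (urotensin 2) had a read in 61.5% of laryngeal neurons (47.02 to 74.7%) and in 8.16% of ACV neurons (3.59 to 15.4%). *Cartpt* was read in 73.1% and 30.6%, and *Trh*, thyrotropin-releasing hormone, in 48.1% and 7.14%. Of these 6 precursors a laryngeal neuron had reads for a median of 5, with 24 neurons at 5 and 11 at all 6. ACV neurons had a median of 2 and never more than 4. The 6 were chosen by their calls on these same neurons, so a higher number in laryngeal neurons follows from the choice. *Igf1* was read in 81.6% of ACV neurons and 46.2% of laryngeal neurons, with medians of 0.435 and 0.

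In the machinery that packs peptides, the 14 secretory granule genes held 1 call in ACV neurons, *Scg2*, and 2 in laryngeal neurons, *Vgf* and *Chga*. *Vgf*, a granin-like precursor, had medians of 0.571 in laryngeal and 0.0436 in ACV neurons, and the laryngeal neuron was higher in 90.01% of pairs. *Chga*, chromogranin A, had medians of 7.77 and 3.60. The list's median pair share was 48.7%, close to that of all genes.

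**Figure D3:**
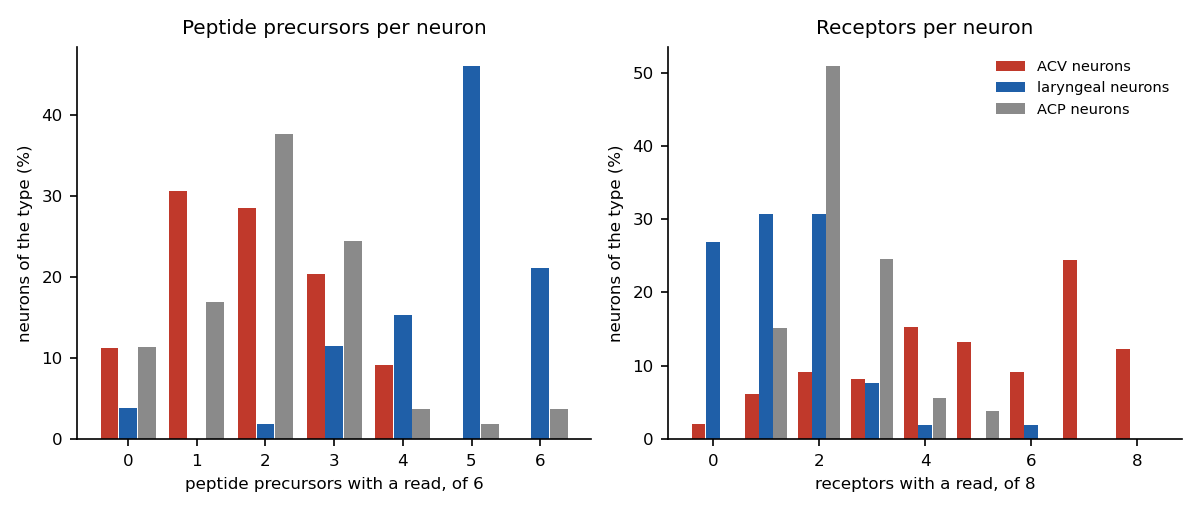
Percent of the neurons of each type (vertical) by the number of genes with a read (horizontal), for the 6 peptide precursors called higher in laryngeal neurons (left) and the 8 receptors called higher in ACV neurons (right). Laryngeal neurons have a median of 5 precursors and 1 receptor, ACV neurons of 2 precursors and 5 receptors. Both sets were chosen by calls on these same neurons, so the direction of each difference follows from the choice.

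Hox genes, which record position along the head-to-tail axis, gave calls in 1 direction. Among 39 Hox genes, 16 had reads in enough neurons to be compared, and 4 were called, all higher in ACV neurons: *Hoxa5*, *Hoxc4*, *Hoxb5* and *Hoxc5*. These lie in 3 different clusters and sit at positions 4 and 5 within them. *Hoxa5* (chr6:52201754-52204587, minus strand) was read in 95.9% of ACV neurons (89.9 to 98.9%) and in 36.5% of laryngeal neurons (23.6 to 51.04%). Its level had a median of 3.56, up to 18.2, against 0, up to 1.84, with means 35.3-fold apart and a pair share of 94.1%. ACP neurons had a read in 37.7% and a mean of 0.106 ± 0.320 (SD), close to the laryngeal mean of 0.125 ± 0.367 (SD).

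*Hoxc4* was read in 92.9% of ACV and 53.8% of laryngeal neurons, with means 6.06-fold apart. *Hoxb5*, which shares exon sequence with an antisense transcript on the opposite strand, was read in 86.7% and 51.9%, with medians of 1.34 and 0.0113. *Hoxc5*, whose exons overlap those of *Hoxc10* as annotated, was read in 57.1% and 9.62%, while *Hoxc10* had no read in any neuron. ACV neurons had a median of 4 of these 4 genes with a read, laryngeal neurons of 2 and ACP neurons of 1. After thinning, the medians were 3, 1 and 1. These genes were chosen by their calls on the same neurons, so a higher number in ACV than in laryngeal neurons follows from the choice.

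The other Hox genes compared stayed inside the limit, and all 16 had pair shares over 50%. *Hoxb4* came nearest, with a pair share of 66.8% and reads in 40.8% of ACV and 7.69% of laryngeal neurons. Genes at earlier cluster positions were read in both types, such as *Hoxa2* in 35.7% and 36.5% and *Hoxa3* in 50% and 38.5%, whereas *Hoxb2* and *Hoxb3* had their highest shares in ACP neurons (81.1% and 73.6%). Genes past position 5 were sparse, with *Hoxb8* in 13.3% of ACV and 9.62% of laryngeal neurons. Within ACV neurons, *Hoxa5* and *Hoxb5* levels had a Pearson r of 0.58 and a Spearman rho of 0.58.

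**Figure D4:**
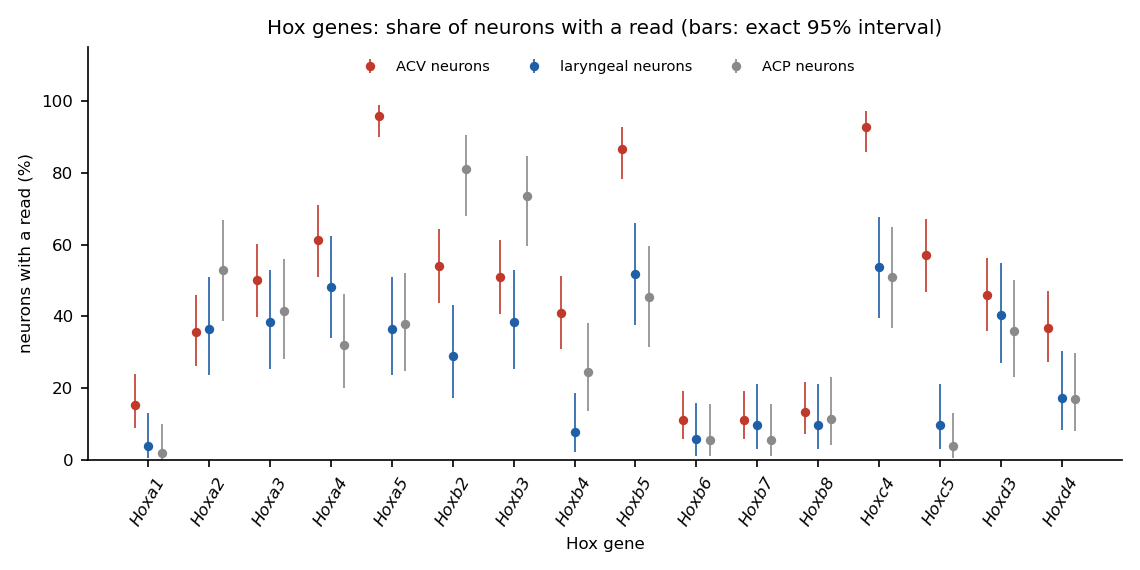
Percent of neurons with at least 1 read (vertical, with exact 95% binomial intervals as bars) for the 16 Hox genes compared, in ACV, laryngeal and ACP neurons. *Hoxa5*, *Hoxb5*, *Hoxc4* and *Hoxc5* stand out in ACV neurons, where *Hoxa5* reached 95.9%.

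The promoters of 3 called genes with a RefSeq entry are shown, since these genes are among the sharpest differences in each direction: *Calca* for laryngeal neurons, *Hoxa5* and *Bche* for ACV neurons. Each line gives the 250 bases before the start of the gene (GRCm38.p6, gene strand, 5′ to 3′), with matches to 4 searched motifs in capitals. The motifs were the TATA box TATAAA, the CCAAT box CCAAT, the GC box GGGCGG and the cAMP response element TGACGTCA, on both strands.
Calca, chr7:114636358-114636607, minus strand: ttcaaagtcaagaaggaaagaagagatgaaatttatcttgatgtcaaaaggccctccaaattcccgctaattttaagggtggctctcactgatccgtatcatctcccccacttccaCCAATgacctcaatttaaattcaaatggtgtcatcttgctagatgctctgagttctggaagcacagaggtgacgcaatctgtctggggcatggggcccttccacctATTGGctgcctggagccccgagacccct
Hoxa5, chr6:52204588-52204837, minus strand: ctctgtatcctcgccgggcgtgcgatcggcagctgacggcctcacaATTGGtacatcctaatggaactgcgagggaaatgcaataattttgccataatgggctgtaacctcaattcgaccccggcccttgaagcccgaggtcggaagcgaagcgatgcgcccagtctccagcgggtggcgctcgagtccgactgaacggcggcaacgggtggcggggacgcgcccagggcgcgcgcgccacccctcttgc
Bche, chr3:73708416-73708665, minus strand: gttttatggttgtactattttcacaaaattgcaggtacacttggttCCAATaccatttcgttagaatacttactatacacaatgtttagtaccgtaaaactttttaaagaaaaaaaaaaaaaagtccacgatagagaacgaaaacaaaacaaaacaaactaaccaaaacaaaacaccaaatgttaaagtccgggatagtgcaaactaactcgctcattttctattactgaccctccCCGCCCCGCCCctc
*Calca* held 2 CCAAT boxes, *Hoxa5* held 1 CCAAT box, and *Bche* held 1 CCAAT box and 2 GC boxes, which overlap each other by 1 base. None of the 3 windows held TATAAA or TGACGTCA. Over the 250 bases of all 32851 promoter entries, 33.8% held CCAAT, 32.7% GGGCGG, 12.4% TATAAA and 1.55% TGACGTCA, so that the motifs seen here are common. Entries matched 73.2% of the genes called in ACV neurons and 170 of the 236 called in laryngeal neurons. Among the entries of the first, 39.7% held CCAAT and 50.7% GGGCGG, and among the 245 of the second, 29.4% and 50.2%, beside 34.8% and 57.7% of the 12786 entries of the other genes compared.

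Of 29 motor neuron and cranial transcription factors compared, 3 were called higher in ACV neurons, among them *Tbx3* and *Runx1*. Another 5 were called higher in laryngeal neurons (*Mab21l2*, *Phox2a*, *Lhx4*, *Nkx6-2* and *Pou3f1*). The list's median pair share was 48.1%, and over all genes 1.12% and 1.77% were called. *Phox2a*, a homeobox factor whose exons overlap those of *Inppl1* on the opposite strand, was read in 67.3% of laryngeal and 11.2% of ACV neurons, with a highest ACV level of 0.383. *Tbx3*, a T-box factor, was read in 79.6% of ACV neurons, 79.2% of ACP neurons and 21.2% of laryngeal neurons. *Lhx4*, a LIM factor of motor neurons with ventral exits, was read in 57.7% of laryngeal and 10.2% of ACV neurons. *Mab21l2* had medians of 1.16 in laryngeal, 1.24 in ACP and 0.0531 in ACV neurons, and overlaps exons of *Lrba* on the opposite strand.

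Among genes known to mark classes of skeletal motor neurons, 7 of 18 were called higher in laryngeal neurons and 1 in ACV neurons, with a median pair share of 42.1%. *Nefh*, the heavy neurofilament of large axons, ran from 0.674 to 20.4 in laryngeal neurons with a median of 7.26 and from 0 to 9.54 in ACV neurons with a median of 1.15. The mean was 4.61-fold higher, and the laryngeal neuron was higher in 89.97% of pairs. Over all neurons, *Nefh* was the sole call among 20 genes of neurofilaments and the axonal cytoskeleton, whose median pair share of 59.7% lay on the ACV side. With *Rn45s* in the totals, 6 genes of this list were called higher in ACV neurons. In neurons with at most 900 or at most 1800 counts of *Apoe*, 2 were called higher in laryngeal neurons. Under 50% of counts on *Rn45s* the laryngeal count was also 2, beside 1 in ACV neurons. *Sv2b*, a synaptic vesicle glycoprotein, was read in 92.3% of laryngeal and 38.8% of ACV neurons, with means 16.1-fold apart.

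*Rbfox3*, the antigen NeuN that is strong in alpha motor neurons, had medians of 1.07 and 0.249. *Dlk1*, linked to fast motor neurons, was read in 65.4% of laryngeal and 23.5% of ACV neurons, but after thinning in 40.4% and 4.08%, and its call was lost there. *Esrrg*, a gamma motor neuron factor, and *Chodl*, a fast motor neuron marker, were also higher in laryngeal neurons (74.02% and 72.6% of pairs). *Sncg*, gamma-synuclein, was the call in ACV neurons, with medians of 18.1 and 8.07. The call of *Sncg* was lost both in neurons with under 50% and in neurons with at least 50% of counts on *Rn45s*.

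Receptors of neurotrophic factors held 4 calls in laryngeal neurons (*Ret*, *Gfra1*, *Ngfr* and *Ntrk2*) and 1 in ACV neurons (*Met*), of 14 compared. Their median pair share was 39.7%, and over all genes 1.77% and 1.12% were called. *Ret* (chr6:118151745-118197718, minus strand), the signalling receptor for the GDNF family, had a laryngeal median of 7.602 (0 to 57.9) and an ACV median of 0.618 (0 to 9.94), with means 7.995-fold apart. *Gfra1*, which binds GDNF and presents it to *Ret*, had medians of 6.80 (0 to 28.6) and 0.535 (0 to 3.43), with means 10.8-fold apart. *Ret* and *Gfra1* levels had a Pearson r of 0.86 over the 52 laryngeal neurons. ACP neurons differed between them, with a mean of 1.77 ± 1.85 (SD) for *Ret* but 0.189 ± 0.515 (SD) for *Gfra1*. *Ngfr*, the p75 neurotrophin receptor, had medians of 1.97 and 0.310, and *Ntrk2*, the receptor for BDNF, of 3.42 and 1.40. *Met*, the receptor for hepatocyte growth factor, was read in 59.2% of ACV, 56.6% of ACP and 13.46% of laryngeal neurons.

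**Figure D5:**
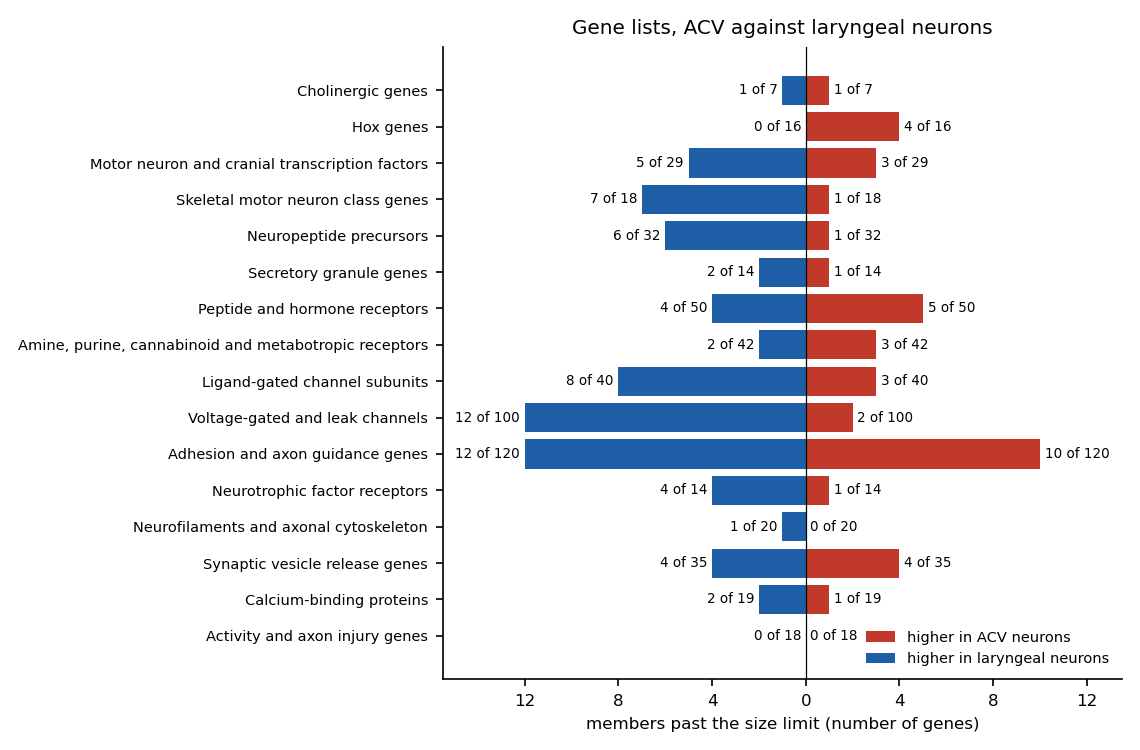
Number of members of each gene list past the size limit, to the right for ACV and to the left for laryngeal neurons, with the number of members compared. Over all genes compared, 1.12% and 1.77% were called, against 7 of 18 skeletal motor neuron genes in laryngeal neurons and 4 of 16 Hox genes in ACV neurons. The lists were chosen with earlier results of these data known, so such an excess may be partly built in.

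Receptors for peptides and hormones split between the types, with 5 of 50 called in ACV neurons (*Ghsr*, *Lepr*, *Npy2r*, *Rxfp2* and *Sstr2*). On the laryngeal side 4 were called (*Adcyap1r1*, *Tacr1*, *Tacr3* and *Hcrtr1*). Over all genes 1.12% and 1.77% were called, and the median pair share of this list was 47.7%. After thinning 3 ACV calls were left, and in neurons with at least 50% of counts on *Rn45s* 2 were left in each direction. In neurons with at most 900 counts of *Apoe* the laryngeal count was 2. In both types most of these receptors were read in a part of the neurons. *Ghsr* (chr3:27371351-27378010, plus strand), the ghrelin receptor, was read in 66.3% of ACV neurons (56.1 to 75.6%), 21.2% of laryngeal neurons (11.1 to 34.7%) and 0 of 53 ACP neurons. Its ACV level had a median of 0.118 and reached 2.21, and its laryngeal level reached 1.29 from a median of 0. Per 1000000 counts outside *Rn45s* this was 24.97 (24.1 to 25.9) in ACV, 7.97 (7.02 to 9.02) in laryngeal and at most 0.0464 in ACP neurons, with exact Poisson intervals and the limit of 3 counts for a count of 0. The pair share of *Ghsr* was 73.3%, and it fell to 68.4% at its lowest among the alternatives tried. After thinning, reads of *Ghsr* remained in 54.1% of ACV and 19.2% of laryngeal neurons.

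*Rxfp2*, a relaxin family receptor, was read in 54.1% of ACV and 3.85% of laryngeal neurons, with 3415 and 5 counts in all. *Npy2r*, a receptor for neuropeptide Y and peptide YY, was read in 53.1% of ACV, 75.5% of ACP and 7.69% of laryngeal neurons. *Sstr2*, a somatostatin receptor, was read in 61.2% and 15.4%, and *Lepr*, the leptin receptor, in 62.2% and 17.3%. On the laryngeal side, *Adcyap1r1*, the PACAP receptor, was read in 94.2% of laryngeal and 75.5% of ACV neurons, with medians of 2.26 and 0.330. *Tacr1*, the substance P receptor, was read in 65.4% and 24.5%, *Tacr3* in 51.9% and 9.18%, and the orexin receptor *Hcrtr1* in 57.7% and 18.4%. *Tacr3* was read in 64.2% of ACP neurons.

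Of 42 receptors for amines, purines, cannabinoids and glutamate of the metabotropic kind, 3 were called in ACV neurons (*Cnr1*, *P2ry1* and *Htr3b*). In laryngeal neurons 2 were called (*Adora1* and *Grm7*). The list had a median pair share of 45.75%, and over all genes 1.12% and 1.77% were called. *Cnr1*, the CB1 cannabinoid receptor, was read in 91.8% of ACV, 98.1% of ACP and 48.1% of laryngeal neurons, with a pair share of 84.3%. *P2ry1*, a purinergic receptor, was read in 62.2% of ACV and 11.5% of laryngeal neurons, with 33.2 (32.2 to 34.3) and 0.506 (0.289 to 0.822) counts per 1000000. *Htr3b*, a serotonin-gated channel subunit, was read in 50% of ACV, 9.62% of laryngeal and 0 of 53 ACP neurons. *Adora1*, an adenosine receptor, had medians of 0.781 in laryngeal and 0.143 in ACV neurons, and *Grm7*, a glutamate receptor, of 0.565 and 0.0237. In neurons with at least 50% of counts on *Rn45s* the calls of *Htr3b* (pair share 55.8%) and *Grm7* (38.2%) were lost. With *Rn45s* in the totals those of *Adora1* and *Grm7* were lost, and that of *Adora1* also in neurons with at least 7000 genes (37.2%).

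Within single neurons, the 8 receptors called in ACV neurons combined to different extents. ACV neurons had reads for a median of 5 of the 8, with 12 of 98 neurons at all 8 and 2 at none, and laryngeal neurons had a median of 1, with 14 of 52 at none and 1 neuron at 6. After thinning, the medians were 4.5 and 1. The 8 receptors were chosen by their calls on these same neurons, so the direction of this difference follows from the choice.

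Calls among subunits of ion channels were more often on the laryngeal side, by a margin that depended on the scale and on the neurons compared. Of 40 ligand-gated subunits compared, 8 were called in laryngeal neurons and 3 in ACV neurons, with a median pair share of 41.6%. With *Rn45s* in the totals the counts were 4 and 3, and in neurons with at least 50% of counts on *Rn45s* they were 5 and 1. The laryngeal count was 14 both in neurons with under 50% of counts on *Rn45s* and in neurons with at least 7000 genes. *Glra2* and *Glrb*, subunits of glycine receptors, were read in 82.7% and 100% of laryngeal neurons, with medians of 0.531 and 2.45 against 0 and 0.842 in ACV neurons. *Grin1*, the obligatory subunit of NMDA receptors, had medians of 1.27 and 0.292. In ACV neurons *Gabrb1*, which overlaps exons of *Gabra4*, had medians of 1.74 against 0.187, and *Gabra2* and *Chrna3* were the other calls. *Chrna3*, a nicotinic subunit of autonomic ganglia, was read in 69.4% of ACV, 69.8% of ACP and 28.8% of laryngeal neurons.

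Of 100 voltage-gated and leak channel genes, 12 were called in laryngeal neurons and 2 in ACV neurons, with a median pair share of 45.3%. Over all genes 1.77% and 1.12% were called. The list's counts were 6 and 4 with *Rn45s* in the totals, and 5 and 1 in neurons with at least 50% of counts on *Rn45s*. In neurons with under 50% the laryngeal count was 22. In neurons with at least 7000 genes it was 23, beside 4 in ACV neurons. *Cacna1g*, a low-threshold T-type calcium channel, was read in 84.6% of laryngeal and 38.8% of ACV neurons, with means 11.5-fold apart. *Kcnc4*, a fast-repolarising potassium channel, had medians of 1.58 and 0.355. The potassium channels held 6 of the laryngeal calls among 63 genes and 0 ACV calls, while sodium, calcium and other channels held 6 among 37. In ACV neurons *Ano2*, a calcium-activated chloride channel, was read in 68.4% against 5.77% of laryngeal and 13.2% of ACP neurons, with means 29.9-fold apart and a pair share of 82.3%. *Fgf13*, which binds sodium channels, was the other ACV call, with medians of 9.75 and 3.53, and its pair share fell to 60.7% at its lowest among the alternatives.

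Adhesion and guidance genes steer axons and match synaptic partners. Over all neurons they were called in similar numbers, with 10 of 120 higher in ACV and 12 higher in laryngeal neurons. Over all genes 1.12% and 1.77% were called. Most members leaned to laryngeal neurons, with 75 of 120 below a pair share of 50% and a list median of 45.9%. The laryngeal count was 30 in neurons with under 50% of counts on *Rn45s* and 4 in those with at least 50%. It was 32 in neurons with at least 7000 genes. Besides *Cd9*, ACV neurons were higher for *Cd24a*, a heavily glycosylated surface protein, with medians of 3.73 and 0.222. *Cntn5*, a contactin, was read in 87.8% of ACV and 44.2% of laryngeal neurons with means 9.78-fold apart, and *Cdh8*, a type II cadherin, in 90.8% and 53.8% with means 6.52-fold apart. For both *Cntn5* and *Cdh8* ACP neurons had shares close to those of ACV neurons (88.7% and 92.5%). Both calls among the 18 ephrins and Eph receptors, *Efna5* and *Epha7*, were higher in ACV neurons. Of 46 semaphorin, plexin, Slit, Robo and netrin pathway genes, 8 were called in laryngeal and 2 in ACV neurons. *Sema3c*, a secreted semaphorin, led the former with medians of 1.98 and 0, and was read in 88.5% of laryngeal, 41.8% of ACV and 94.3% of ACP neurons.

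In the release machinery, 4 of 35 synaptic vesicle genes were called in each direction, beside 1.12% (ACV) and 1.77% (laryngeal) of all genes compared. With *Rn45s* in the totals, 8 were called in ACV neurons, and in neurons with at least 50% of counts on *Rn45s* 0 were. Laryngeal neurons were higher for *Sv2b*, *Vamp1*, *Syt2* and *Syt12*, and ACV neurons for genes that included *Cplx2*, *Sncg* and *Syt5*. *Vamp1* and *Syt2*, the vesicle SNARE and calcium sensor of fast motor terminals, had medians of 3.85 and 2.00 in laryngeal neurons against 0.966 and 0.301. *Cplx2*, a complexin, had medians of 2.44 in ACV and 0.889 in laryngeal neurons. The ACV call of *Cplx2* was lost among neurons with at least 50% of counts on *Rn45s*.

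The remaining lists held few calls. Of 19 calcium-binding genes, *Vsnl1* and *Tesc* were called in laryngeal neurons and *S100a11* in ACV neurons. *Calb1*, whose share was 77.4% in ACP neurons, was read in 44.9% of ACV and 44.2% of laryngeal neurons, with a pair share of 51.5%. Of the 7 cholinergic genes, *Slc18a3* was called higher in laryngeal neurons, with medians of 14.9 and 6.73, and *Bche* in ACV neurons. The call of *Slc18a3* was lost without the neurons above 1800 counts of *Apoe*, in neurons with at least 7000 genes and with *Rn45s* in the totals, where its pair share came nearest to 50% at 40.1%. Of 18 activity and axon injury genes none was called over all neurons, with *Jund* farthest out at a laryngeal-higher share of 69.01%. *Jund* was called higher in laryngeal neurons at both limits of *Apoe* counts (900 and 1800) and under 50% of counts on *Rn45s*. Under 50%, 2 genes of this list were called in laryngeal neurons. In neurons with at least 7000 genes, 1 was called in ACV neurons. Of 5 sex-linked genes none was called. *Xist*, whose exons overlap opposite-strand genes, was read in 43.9% of ACV and 26.9% of laryngeal neurons. Reads of *Xist* without Y genes were found in 34 of 98 ACV and 9 of 52 laryngeal neurons, and of Y genes without *Xist* in 48 and 28. Both were read in 9 and 5 neurons, and neither in 7 and 10. The part of sex in the results was not tested.

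Each neuron was scored by the leading genes of both types. These genes were chosen on the same ACV and laryngeal neurons, so a separation of the 2 types follows from the choice. The mean log level of the 10 leading ACV genes minus that of the 10 leading laryngeal genes was above 0 in 96 of 98 ACV neurons (-0.263 to 1.62, median 1.14) and below 0 in 52 of 52 laryngeal neurons (-1.73 to -0.0242, median -0.987). ACP neurons spread over both, with 30 above and 23 below 0 and a median of 0.0925.

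The split by *Rn45s* share gives the comparison within more alike libraries. Neurons with under 50% of counts on *Rn45s* were 76 ACV and 15 laryngeal neurons, a laryngeal number at which pair shares vary more. Among them, calls amounted to 1.67% of the 13297 genes in ACV and 5.47% in laryngeal neurons. Among those with at least 50% (22 ACV, 37 laryngeal), calls amounted to 0.827% and 1.16% of the 13297 genes and included 34.9% of the ACV and 47.9% of the laryngeal calls made over all neurons, while 2 of the 385 had pair shares on the other side of 50%. Each of the 10 leading genes of either type was called in both subsets except *Ubb*, whose call was lost in the latter. The calls of *Hoxc5*, *Npy2r*, *Tacr1*, *Lhx4*, *Gabrb1*, *Glrb*, *Ntrk2* and *S100a11* were also lost there, and those of *Chga*, *Glrb* and *Ntrk2* with *Rn45s* in the totals. Those of *Tacr1* and *Lhx4* were lost in neurons with at most 900 counts of *Apoe* as well. The part of the *Rn45s* share, and of the mice, in the remaining differences was not tested.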

How the data were processed

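Single neurons were sequenced by Smart-seq2, and the authors aligned the reads to mm10 with STAR 2.6.1d. The program and annotation used for counting are not given in the sources used here. The authors deposited raw read counts per gene for each neuron, which were used as deposited. Their CPM table was not used, because its columns do not sum to 1000000. No deposited column lacked a sample.

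The 203 neurons comprise 98 ACV, 52 laryngeal and 53 ACP neurons. Each neuron's type was taken from the labels and the deposited annotation. Counts were divided by the neuron's total without *Rn45s*, multiplied by 10000, increased by 1 and log transformed for the rank sum statistic, which is given as a share of pairs. Means, medians and folds are on the scale before the log. A gene was compared when at least 10% of ACV or laryngeal neurons had a read. Against a type without reads, the fold is a lower bound set by 3 counts over the whole type. No p-value was computed, since neurons of unknown mice are not replicates. Exact binomial and Poisson intervals are at 95%. The script was tested on simulated data. The limits called 149 genes in ACV and 236 in laryngeal neurons. The 3 like ACV neurons are 126, 133 and 140 in sample order.

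Genes named in the text were the 10 highest and 10 lowest pair shares among the called genes, up to 5 called members of each list (or its member farthest from 50% where none was called), list genes without a read in one type, and genes that mark the neurons, among them *Chat*, *Slc18a3*, *Slc5a7*, *Isl1*, *Ghsr*, *Bche*, *Hoxa5*, *Calb1*, *Calca*, *Calcb*, *Dlk1*, *Apoe*, *Rn45s*. Some genes covered by the rule are not reported here. Further list members, the genes next to the limit, *Mia2* and *Tm4sf4* were named after their values were seen. The comparison and the gene lists were chosen with earlier results of these data known. Gene positions are from GENCODE on GRCm38 (mm10) and promoters from RefSeq on GRCm38.p6.

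Python 3.11.15, scipy 1.17.1, edgeR 4.0.16 (TMM library sizes) and DESeq2 1.42.0 (size factors) were used, the latter 2 for alternative scalings only. The other alternatives were totals with *Rn45s*, thinning to 118492 counts, subsets of neurons by counts, genes, *Apoe* and *Rn45s*, and other limits for a call.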

Additional observations from a re-analysis of the deposited data

How the results depend on the processing

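Calls are given here as percent of 13297 genes, for ACV and laryngeal neurons, against 1.12% and 1.77%. Scaling by TMM, by DESeq2 size factors or by thinning left both within 1.5 times those values, as did neurons with at least 1000000 counts. The same held, in alternatives chosen after seeing the data, for neurons with at most 1800 counts of *Apoe* (1.32% and 2.05%) and without the 3 like ACV neurons. Another detection filter, or none, changed no call by construction. A pair share of 70% already requires reads in a larger part of the higher type than the filters do. With *Rn45s* in the totals, the calls were 5.0% and 0.985%. At most 900 counts of *Apoe* gave 1.71% in ACV neurons. Under 50% of counts on *Rn45s* gave 5.47% in laryngeal neurons, and at least 50% gave 1.16%. At least 7000 genes gave 1.79% and 3.82%. Pair shares of 65% and 75% in place of 70% gave 1.87% and 3.4%, and 0.564% and 0.895%. A 1.5-fold limit gave 1.73% in ACV neurons and a 4-fold limit 0.519% and 0.857%. Looser limits call more genes by construction, and the cause of the other moves was not tested.

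Of 70 called genes named by the rule, 48 were called in all 11 alternatives to the scale or the neurons and 0 changed side. Of 550 recounted list counts, 57 moved by over 1.5 times. No paired analysis was possible because the labels tie no neuron to a mouse and the result comes from no test. Thinning to the depth of the shallowest neuron ended the calls of *Ghsr* and *Dlk1* among the genes named by the rule.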
